A study of Homo sapiens with 6 samples.

Results

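The genes described here encode the cytoplasmic initiation factors (symbols EIF1 to EIF6) and elongation factors (symbols EEF) that run protein synthesis, measured as messenger RNA in PC-9 cells with and without knockdown of IFITM3. They were taken by symbol: of 72 symbols in the deposited table with these beginnings, 60 were kept, out of 26485 symbols in all. The 12 left out were EIF1AY with the kinases EIF2AK1 to EIF2AK4 and EEF2K (6 symbols), antisense rows (4) and pseudogenes (2). PC-9 is a human lung adenocarcinoma line that depends on mutant EGFR, grown in RPMI medium with serum, and no drug is named for these samples. In the group called shIFITM3 the cells stably expressed a short hairpin RNA against IFITM3, an interferon-induced membrane protein, and in the group called shControl a control hairpin. The column names of the table write ShEV for the control, and which of these it was is not settled here. How many hairpins were used, and with which sequence, is not stated in the labels, so the loss of IFITM3 and other effects of a hairpin cannot be told apart. Each group had 3 biological replicates, each sequenced as stranded messenger RNA, so p-values rest on the spread between these 6 samples. The tests of single genes also draw on the spread of the other genes. Spread between independently made knockdowns was not tested.

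Initiation begins when eIF2, carrying the initiator tRNA, joins the small ribosomal subunit together with eIF1, eIF1A, eIF3 and eIF5. The complex eIF4F, made of the cap-binding protein eIF4E, the scaffold eIF4G and the helicase eIF4A, brings this assembly to the capped end of an mRNA, and the eIF4E-binding proteins block eIF4E when the kinase mTOR leaves them unphosphorylated. Elongation then runs on eEF1, which brings aminoacyl-tRNA to the ribosome, on eEF2, which moves the ribosome along, and on eIF5A, which carries the modified lysine hypusine and relieves stalled ribosomes.

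The libraries held between 21342028 and 27493145 counts, apart from shControl replicate 2 with 77228760. IFITM3 fell from 60.1 ± 2.91 to 10.99 ± 1.65 CPM (the count relative to its library's scaled total; SD, n = 3), a log2 change of -2.45, with no overlap between the groups. The epithelial markers KRT8, KRT18, KRT19, EPCAM and CDH1 were abundant, KRT8 with 3677 CPM on average in shControl and 2603 in shIFITM3. The lung adenocarcinoma markers NKX2-1, NAPSA, SFTPB and SFTPC were too low to be tested in these libraries. Of 10 markers of leukocytes, endothelium and fibroblasts, CD68 had mean levels of 65.8 and 75.9 CPM (shControl first), COL1A1 of 9.56 and 11.5 CPM, and PTPRC, CD3E, VWF, COL1A2, PDGFRB and DCN were too low to be tested. The endothelial markers PECAM1 and CDH5 were low and moved in opposite directions, PECAM1 from 2.70 to 0.842 CPM (log2 fold change -1.66) and CDH5 from 0.666 to 2.04 CPM (1.68), and both passed the test. The part of these markers in the results was not tested. CPM is a share of each library, so a change in total RNA per cell is not measured.

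Small falls were the most frequent change among the translation factor genes in shIFITM3. Of the 60 genes, 54 had enough counts to be tested, and of these 29 fell (53.7%), 7 rose (13%) and 18 did not pass (quasi-likelihood test of edgeR, p adjusted after Benjamini and Hochberg over all tested genes, threshold 0.05). Over all 14018 genes tested the same test called 56.1%, with 28.4% lower and 27.7% higher. The median log2 fold change of the factors was -0.11, beside -6.3e-05 over all genes, and 42 of the 54 values lay below 0. Their changes were small in size: the median absolute log2 fold change was 0.13, beside 0.25 over all genes. In 38 of the 54 every sample of a group lay on the same side of every sample of the other, 31 lower and 7 higher in shIFITM3. Over all genes the share was 60.9% (30.8% lower, 30.1% higher). Only 4 of the 54 passed the test with an absolute log2 fold change of at least 0.5, against a background of 19.7% of all genes, namely EEF1A2 and EIF2S2, which fell, and EIF4EBP2 and EIF3C, which rose. EIF3C is uncertain for reasons given with eIF3, and without it 6 of 53 rose and 29 fell.

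**Figure D1:**
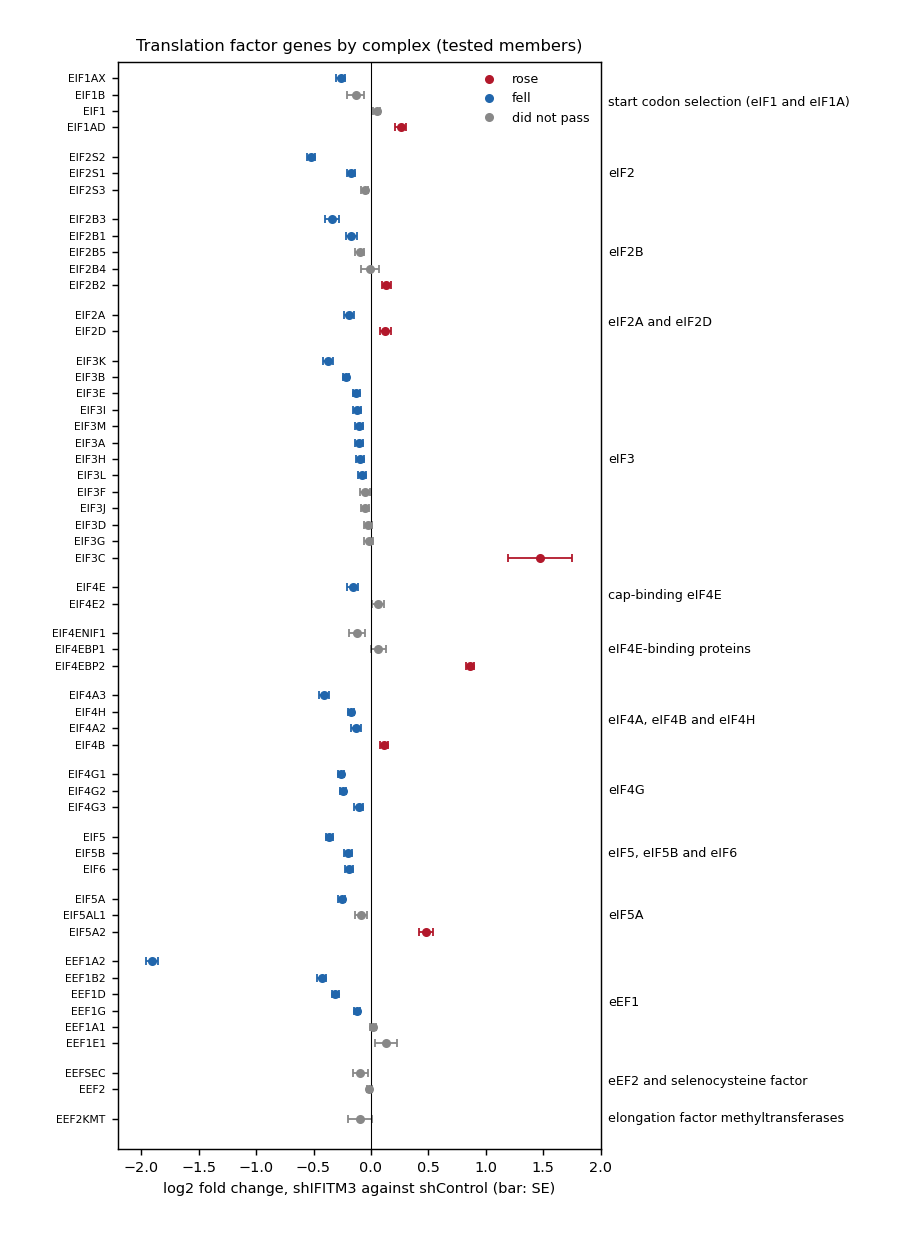
Log2 fold change of shIFITM3 against shControl for the 54 tested translation factor genes, grouped by complex (points: estimate; bars: SE; red rose, blue fell, grey did not pass at adjusted p under 0.05). Most points lie slightly left of 0, and EEF1A2 at -1.91, EIF4EBP2 at 0.86 and EIF3C at 1.47 lie apart from the rest.

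The 6 genes without a test need care, because most of them share sequence or position with another row. EIF4A1 (chromosome 17, 7572825 to 7579006, GRCh38.p14), the main eIF4A helicase gene, is listed at 0 in all 6 libraries. In the RefSeq annotation it lies wholly inside the read-through gene SENP3-EIF4A1, whose own row holds 4, 19 and 11 counts in shControl and 3, 2 and 5 in shIFITM3, and in GENCODE release 29 100% of its exon bases are shared with another gene on the same strand. The 0 is therefore a value of the table and not a measured absence, and nothing is said of EIF4A1 expression. EIF3CL, EIF4E1B (an oocyte form of eIF4E) and the read-through row EEF1E1-BLOC1S5 were also listed at 0 in every library. EIF4E3 had 4, 20 and 6 counts in shControl and 12, 16 and 8 in shIFITM3, and EIF4EBP3 had 2 counts in shIFITM3 replicate 1 and 0 in every other library.

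The letters at the transcript starts are shown because the mRNAs of many translation factors begin with a C followed by a run of pyrimidines, the 5′ terminal oligopyrimidine motif through which mTOR and its partner LARP1 control their translation. RefSeq start windows of GRCh38.p14 were used for 49 of the 60 genes. A run of C and at least 4 further C or T letters, counted from the annotated start base on the transcript strand only, was found in 11 of them (22.4%). The share was 4.04% among all 27305 windows and 4.46% among the 16199 windows of genes with a count row. EEF1D, EIF3E, EIF3H and EIF4EBP1 were left out by a filter on genomic position, not for want of a match. The windows of the background were not filtered in this way, so the shares, and those of the E-box below, follow unlike rules. Of the genes left out by the filter, EEF1D, EIF3E and EIF3H fell and EIF4EBP1 did not pass. The 11 windows are printed below, 15 bases before the start and 15 from it on, with the run in capitals.
EEF1A1 (chr6:73521018-73521047, minus strand): gtcgccgtgaacgttCTTTTTCgcaacggg
EEF2 (chr19:3985449-3985478, minus strand): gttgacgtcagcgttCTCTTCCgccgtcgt
EIF2A (chr3:150546772-150546801, plus strand): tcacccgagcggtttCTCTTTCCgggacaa
EIF2D (chr1:206612451-206612480, minus strand): ggtttccagccgggcCCTTTTCgcggccgg
EIF2S3 (chrX:24054941-24054970, plus strand): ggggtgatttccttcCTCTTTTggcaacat
EIF3D (chr22:36529152-36529181, minus strand): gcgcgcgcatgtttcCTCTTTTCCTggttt
EIF3F (chr11:7987322-7987351, plus strand): ttccgcttccgcctcCTTCTTTCTCgacaa
EIF3K (chr19:38619173-38619202, plus strand): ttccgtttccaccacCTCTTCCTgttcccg
EIF3M (chr11:32583816-32583845, plus strand): gcgcggcccagttccCTTTTCCggtcggcg
EIF4A2 (chr3:186783562-186783591, plus strand): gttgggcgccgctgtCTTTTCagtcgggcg
EIF4B (chr12:53006441-53006470, plus strand): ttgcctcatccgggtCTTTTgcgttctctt

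Among the genes with a window, most of those with the run had small changes, the largest being EIF3K at -0.37. The split rests on the annotated start base of each gene, and whether these cells use that start was not tested. EEF1B2 (-0.43) and EEF1G (-0.12) had no run at that base and count as genes without it. Of the 11, 2 rose (EIF2D and EIF4B), 4 fell (EIF3K, EIF2A, EIF4A2 and EIF3M) and 5 did not pass, with log2 fold changes between -0.37 and 0.12 and a median of -0.05. Of the 38 windows without the run 33 belonged to tested genes, of which 5 rose and 18 fell, with a median of -0.12. Over all genes tested 27.7% rose and 28.4% fell. EEF1A2 (log2 fold change -1.91) and EIF2S2 (-0.52), the largest falls among the factors, had no window and are in neither set. The comparison covers neither them nor the other genes without a window. The windows of the 5 genes below have no run at the annotated start, whose base is the capital letter, and these genes are described further on.
EIF4EBP2 (chr10:70404130-70404159, plus strand): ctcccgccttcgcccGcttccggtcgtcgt
EIF5A2 (chr3:170908623-170908652, minus strand): cccgccccgtctcttGgaactgccgcggcc
EIF5A (chr17:7306984-7307013, plus strand): atgggtgggaacccgAccacactagcgcgc
EIF4G1 (chr3:184314591-184314620, plus strand): tctgtgcggggagccGgaaatggttgtgga
EIF5 (chr14:103334222-103334251, plus strand): gcggcggcgttgttcAgtcagagcgagaac

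**Figure D2:**
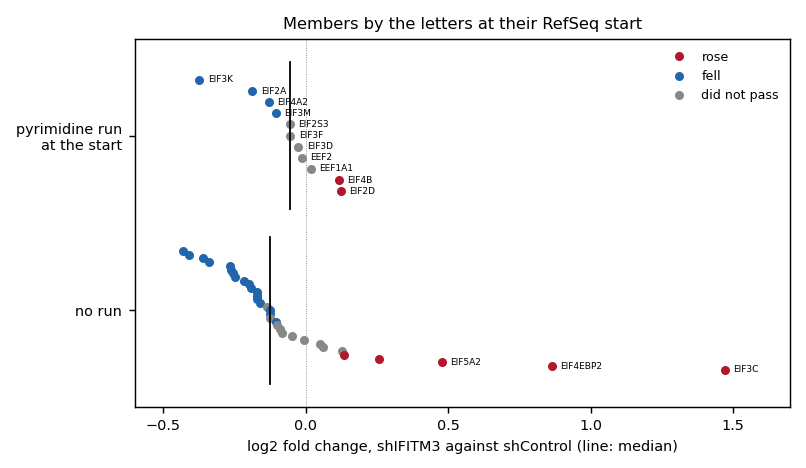
Log2 fold change of the tested genes with a RefSeq start window, split by whether a pyrimidine run opens at the annotated start (each point a gene, the black line the median of its row, colours as for the plot by complex). The 11 genes with the run sit between -0.37 and 0.12, while those without it, a larger set, range from -0.43 to 1.47. The value of 1.47 is that of EIF3C, whose row is uncertain, and the next highest is EIF4EBP2 at 0.86. Genes without a window, among them EEF1A2 and EIF2S2, are not shown.

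The E-box CACGTG, the best known binding sequence of MYC and related factors, reads the same on both strands and was looked for in 250 bases before and 50 after each start. It was found in 12 of the 49 windows (24.5%), beside 7.43% of all windows and 8.63% of those of genes with a count row. Of the 11 tested genes with it 2 rose, 6 fell and 3 did not pass, beside 27.7% higher and 28.4% lower over all genes. Their median log2 fold change was -0.16, and that of the 33 tested genes without it was -0.11. A match is a description of the letters and shows no binding. Examples are shown for 4 of the genes described below, with CACGTG in capitals.
EIF4E (chr4:98929341-98929370, minus strand): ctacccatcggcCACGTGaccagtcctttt
EIF4G1 (chr3:184314450-184314479, plus strand): ggctgtggctgtCACGTGacggggcggggg
EIF4A3 (chr17:80147232-80147261, minus strand): ccagttccctttCACGTGacgaagagtgcc
EIF5A2 (chr3:170908807-170908836, minus strand): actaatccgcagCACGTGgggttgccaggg

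Among the genes of start codon selection 1 rose, 1 fell and 2 did not pass. EIF1AX (chromosome X, 20124525 to 20141838), which encodes eIF1A, stood at 234, 215 and 217 CPM in shControl and at 189, 174 and 191 CPM in shIFITM3. All shIFITM3 samples lay below all shControl samples (-0.26 ± 0.041 standard error, SE, on the log2 scale, edgeR adjusted p = 7.36e-06). EIF1AD, an eIF1A-domain protein named for its sequence and not known as a core factor, rose by 0.26. EIF1, the factor that keeps the ribosome scanning until an AUG is met, averaged 410 and 424 CPM and did not pass (log2 fold change 0.05, edgeR adjusted p = 0.176). Its paralog EIF1B, at 28.3 and 25.7 CPM, did not pass either.

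Of the 3 subunit genes of eIF2, the GTPase that carries the initiator tRNA, 2 fell and 1 did not pass. EIF2S2 (chromosome 20, 34088309 to 34112243), the beta subunit, was at 268, 264 and 283 CPM in shControl and at 189, 186 and 193 CPM in shIFITM3. The groups were far apart, and the level fell by 30.3%, more than that of any other gene of the complex (-0.52 ± 0.035 SE on the log2 scale, edgeR adjusted p = 8.75e-12). Other genes share 22.55% of the 50-base windows of EIF2S2. EIF2S1 (chromosome 14, 67360328 to 67386516), the alpha subunit on which the stress kinases act, was at 283, 269 and 282 CPM and then at 253, 239 and 248 CPM. It fell by 0.17 (SE 0.034, edgeR adjusted p = 1.64e-04), also with no overlap. EIF2S3, the gamma subunit that binds the tRNA and GTP, averaged 267 and 256 CPM and did not pass (log2 fold change -0.06, edgeR adjusted p = 0.163). Summed over the 3 genes, the level went from 816 ± 15.8 to 692 ± 12.5 CPM, a change of -15.2%.

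The exchange factor eIF2B, which reloads eIF2 with GTP, had changes in both directions. EIF2B3 (chromosome 1, 44850522 to 44986595), the gamma subunit, was at 46.1, 44.8 and 49.8 CPM in shControl and fell without overlap to 35.3, 39.0 and 36.5 CPM (-0.34 ± 0.060 SE on the log2 scale, edgeR adjusted p = 3.65e-05). EIF2B1, the alpha subunit, fell by 0.17, while EIF2B2, the beta subunit, rose by 0.14. EIF2B2 shares 29.3% of its exon bases with a gene on the opposite strand in GENCODE. EIF2B4 (delta) was at 23.3 and 23.2 CPM and did not pass. EIF2B5, the catalytic epsilon subunit, was at 90.9 and 85.0 CPM and missed the threshold (edgeR adjusted p = 0.0532) although the samples of the groups did not overlap. The sum of the complex differed by -3.36%, less than that of eIF2.

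The factors eIF2A and eIF2D, which act in non-canonical initiation and in ribosome recycling, moved apart. EIF2A (chromosome 3, 150546787 to 150586016) was at 123, 116 and 129 CPM in shControl and at 106, 107 and 109 CPM in shIFITM3. It fell by 0.19 on the log2 scale (SE 0.044, edgeR adjusted p = 7.49e-04) without overlap. EIF2D rose by 0.12 (edgeR adjusted p = 0.0267). This call was lost in 7 of the 15 other settings tried, with adjusted p from 0.0137 to 0.0756 over all of them, among them each shControl replicate left out.

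In eIF3, the scaffold of many subunits that holds the small ribosomal subunit open for mRNA, 8 of 13 tested genes fell, 1 rose and 4 did not pass. EIF3K (chromosome 19, 38619188 to 38636954), a peripheral subunit, was at 108, 113 and 113 CPM in shControl and fell without overlap to 85.3, 84.7 and 87.6 CPM (-0.37 ± 0.042 SE on the log2 scale, edgeR adjusted p = 5.14e-08). EIF3B, a core subunit, fell by 0.22 from 712 ± 8.29 to 613 ± 8.06 CPM. The other falls were smaller, from -0.13 for EIF3E over EIF3I, EIF3M, EIF3A and EIF3H to -0.08 for EIF3L. EIF3D, which can itself bind a cap, and EIF3F, EIF3G and EIF3J did not pass, with log2 fold changes between -0.05 and -0.02. The summed level of the complex was 3340 ± 16.9 CPM in shControl and 3074 ± 35.7 CPM in shIFITM3, which is -7.96% (exact permutation p = 0.1).

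Several eIF3 values are less firm than these. The EIF3L fall (edgeR adjusted p = 0.0452) was lost in 9 of the 15 other settings (adjusted p from 0.0131 to 0.202), and 41.6% of its exon bases are shared with another gene on the same strand. The falls of EIF3A, EIF3H and EIF3M were each lost on leaving out 1 library, shControl replicate 2 (adjusted p = 0.0525), shIFITM3 replicate 1 (0.0501) and shControl replicate 3 (0.0543) in that order. EIF3C (chromosome 16, 28688558 to 28735730) was at 0.943, 0.753 and 0.985 CPM in shControl and at 2.27, 2.70 and 2.26 CPM in shIFITM3, from 20, 58 and 27 counts and then 50, 62 and 54 counts. The estimate was 1.47 ± 0.280 SE on the log2 scale (edgeR adjusted p = 9.08e-05), with no overlap between the groups. However, 83.4% of its sequence in windows of 50 bases is found in another gene, mostly its near-identical copy EIF3CL, which is listed at 0, and how the counting treated reads of both copies was not tested.

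Of the 4 cap-binding genes 2 were tested, of which EIF4E fell and EIF4E2 did not pass. EIF4E (chromosome 4, 98879276 to 98929133), which holds the mRNA cap in eIF4F, was at 61.8, 59.9 and 59.9 CPM in shControl and at 55.2, 52.8 and 54.4 CPM in shIFITM3. The groups did not overlap, and the level fell by 10.5% (-0.16 ± 0.048 SE on the log2 scale, edgeR adjusted p = 0.00699). EIF4E2, a cap-binding homolog that does not join eIF4G and works in translational repression, was at 79.2 and 82.9 CPM and did not pass (edgeR adjusted p = 0.297).

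The eIF4E-binding proteins held the most marked rise outside EIF3C. EIF4EBP2 (chromosome 10, 70404145 to 70428618), an inhibitor that competes with eIF4G for eIF4E, was at 154, 158 and 157 CPM in shControl and at 280, 284 and 288 CPM in shIFITM3. Every shIFITM3 sample stood well above every shControl sample, a rise of 81.8% (0.86 ± 0.034 SE on the log2 scale, edgeR adjusted p = 2.20e-16). EIF4EBP1 (chromosome 8, 38030534 to 38060365), its best studied paralog, was at 38.6, 42.8 and 42.5 CPM and then at 39.5, 46.5 and 44.0 CPM. These groups overlapped, and the log2 fold change of 0.06 did not pass, with a 95% interval from -0.07 to 0.19 (edgeR adjusted p = 0.408). EIF4ENIF1, the shuttling protein 4E-T that binds eIF4E in mRNA storage and decay, was at 26.5 and 24.3 CPM and did not pass (edgeR adjusted p = 0.127).

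Ratios within a library do not depend on scaling, and they put the binding proteins beside their target. The log2 ratio of EIF4EBP2 to EIF4EBP1 was 1.99, 1.88 and 1.88 in shControl and 2.83, 2.61 and 2.71 in shIFITM3, a difference of 0.79. That of EIF4EBP1 to EIF4E was -0.68, -0.48 and -0.50 and then -0.48, -0.18 and -0.30, a difference of 0.23. Neither ratio overlapped between the groups, the second by a margin too small to show at 2 decimals. Each gave the smallest p that 3 against 3 samples allow (exact permutation test, two-sided, p = 0.1), which is 0.1125 after adjustment over the 9 ratios computed. Summed over the binding proteins, of which only EIF4EBP2 passed, the level was 224 ± 4.69 CPM in shControl and 352 ± 6.90 CPM in shIFITM3, without overlap (exact permutation p = 0.1, and 0.16 after adjustment over the sums).

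**Figure D3:**
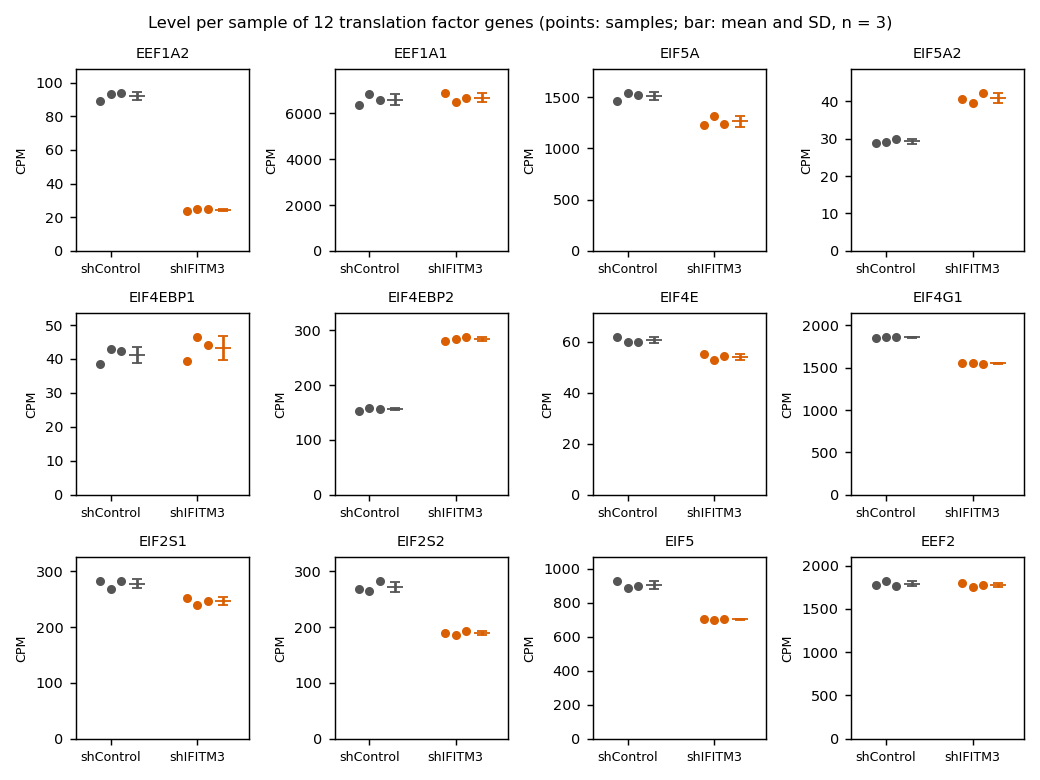
CPM per sample of 12 translation factor genes in shControl (grey) and shIFITM3 (orange), each panel starting at 0 (points: samples; bar: mean and SD, n = 3). EEF1A2 and EIF4EBP2 separate the groups most widely, while EEF1A1, EEF2 and EIF4EBP1 overlap.

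All 3 eIF4G genes fell. EIF4G1 (chromosome 3, 184314606 to 184335358), the main scaffold of eIF4F, was at 1854, 1863 and 1861 CPM in shControl and at 1560, 1551 and 1547 CPM in shIFITM3. The spread within a group was small beside the difference, and the level fell by 16.5% (-0.26 ± 0.023 SE on the log2 scale, edgeR adjusted p = 1.02e-09). EIF4G2, also called DAP5, a homolog without the eIF4E-binding part, fell by nearly the same step, from 1008 ± 10.2 to 849 ± 14.2 CPM (log2 fold change -0.25). The log2 ratio of EIF4G2 to EIF4G1 accordingly differed by 0.01 (exact permutation test, p = 0.7). EIF4G3 fell by 0.11, a call lost without shControl replicate 2, shIFITM3 replicate 1 or shIFITM3 replicate 3, with adjusted p up to 0.142. The sum of the scaffolds went from 2999 ± 5.42 to 2525 ± 12.8 CPM, a change of -15.8%.

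Among the helicase genes and their helpers 3 fell and 1 rose, with EIF4A1 listed at 0. EIF4A3 (chromosome 17, 80134369 to 80147128), which despite its name belongs to the exon junction complex left by splicing, was at 136, 143 and 148 CPM in shControl and at 106, 107 and 108 CPM in shIFITM3. It fell by 24.7% with no overlap (-0.41 ± 0.041 SE on the log2 scale, edgeR adjusted p = 7.48e-09). EIF4A2 (chromosome 3, 186783577 to 186789897), the second eIF4A helicase of the cytoplasm, was at 250, 232 and 233 CPM and then at 222, 202 and 228 CPM. Here the groups nearly met, and EIF4A2 fell by 0.13 (SE 0.042, edgeR adjusted p = 0.0107), a call that was lost without shControl replicate 1 or shIFITM3 replicate 2 (adjusted p up to 0.0819). Of the helicase helpers, EIF4H fell by 0.17 and EIF4B, a target of S6 kinase, rose by 0.12. Other genes share 15.35% of the 50-base windows of EIF4H and 34.97% of those of EIF4B.

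The genes of eIF5, eIF5B and eIF6 all fell. EIF5 (chromosome 14, 103334237 to 103345025), which triggers GTP hydrolysis by eIF2 at the start codon, was at 928, 885 and 898 CPM in shControl and at 702, 701 and 707 CPM in shIFITM3. It fell by 22.2% with wide separation of the groups (-0.36 ± 0.027 SE on the log2 scale, edgeR adjusted p = 5.11e-11). EIF5B, which joins the large subunit, fell by 0.20, and EIF6, which keeps the large subunit from joining too early, fell by 0.19. Their summed level went from 1494 ± 42.1 to 1218 ± 4.67 CPM, or -18.4%, the lowest sum of any complex relative to shControl.

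EIF5A fell and its paralog EIF5A2 rose. EIF5A (chromosome 17, 7306999 to 7312463) was at 1468, 1542 and 1520 CPM in shControl and at 1229, 1322 and 1243 CPM in shIFITM3. It fell by 0.26 on the log2 scale (SE 0.029, edgeR adjusted p = 5.48e-08). EIF5A2 (chromosome 3, 170888418 to 170908637), a paralog that is low in most adult tissues and gained in some cancers, was at 28.8, 29.2 and 29.9 CPM and then at 40.6, 39.6 and 42.3 CPM. It rose by 39.3% (0.48 ± 0.059 SE on the log2 scale, edgeR adjusted p = 2.78e-07), and neither gene's groups overlapped. The log2 ratio of EIF5A2 to EIF5A was -5.67, -5.72 and -5.67 in shControl and -4.92, -5.06 and -4.88 in shIFITM3, a difference of 0.73 (exact permutation test, p = 0.1). EIF5A remained by far the more abundant, at 604 CPM per kilobase of exon in shIFITM3 beside 7.30 for EIF5A2. EIF5AL1, a near copy of EIF5A, did not pass. EIF5A shares 27.2% of its 50-base windows with other genes, EIF5AL1 in particular, so the split of reads between those rows is uncertain.

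The eEF1 genes held the largest change of all translation factors. EEF1A2 (chromosome 20, 63488014 to 63499083), the form of the tRNA carrier eEF1A that is normal in muscle and neurons and is expressed in some tumours, was at 89.2, 93.1 and 93.8 CPM in shControl and at 23.8, 25.0 and 24.7 CPM in shIFITM3. The level in the knockdown was 0.266 times that in the control, with samples of a group close together (-1.91 ± 0.052 SE on the log2 scale, edgeR adjusted p = 2.64e-19). None of its 50-base windows is found in another gene. EEF1A1 (chromosome 6, 73515750 to 73521032), the general form, was at 6375, 6859 and 6589 CPM and then at 6893, 6485 and 6693 CPM. The groups overlapped fully, and the log2 fold change of 0.02 did not pass, with a 95% interval from -0.03 to 0.07 (edgeR adjusted p = 0.573). The log2 ratio of EEF1A2 to EEF1A1 was -6.16, -6.20 and -6.13 in shControl and -8.18, -8.02 and -8.08 in shIFITM3, a difference of -1.93 (exact permutation test, p = 0.1). Per kilobase of exon EEF1A1 stood at 1284 CPM and EEF1A2 at 45.7 CPM in shControl, so the sum of the complex moved by only -2.92%, from 8772 ± 254 to 8517 ± 254 CPM, with overlap (exact permutation p = 0.5).

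The subunit genes of the exchange complex of eEF1, which as a whole reloads eEF1A with GTP, all fell. EEF1B2 (beta) went from 289 ± 10.5 to 215 ± 13.6 CPM (-0.43 ± 0.041 SE on the log2 scale, edgeR adjusted p = 3.27e-09). EEF1D (delta), which shares 19.9% of its exon bases with genes on the opposite strand, fell by 0.31, and EEF1G (gamma) by 0.12. Here 40.6% of the 50-base windows of EEF1B2 and 98.7% of those of EEF1G are also in other annotated genes, pseudogenes for the first and an overlapping gene for the second. EEF1E1, also called AIMP3, a tRNA synthetase complex protein named for its likeness to eEF1, was at 12.9 and 14.1 CPM and did not pass (edgeR adjusted p = 0.273).

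EEF2 (chromosome 19, 3976056 to 3985463), the translocase, was at 1779, 1823 and 1769 CPM in shControl and at 1797, 1750 and 1773 CPM in shIFITM3. The groups overlapped, and the log2 fold change of -0.01 had a 95% interval from -0.06 to 0.04 (edgeR adjusted p = 0.649). EEFSEC, which delivers selenocysteine, and EEF2KMT, a lysine methyltransferase of eEF2, did not pass either, at -0.09 and -0.10. Of the 9 tested elongation factor genes 4 fell (44.4%), all of them in eEF1, and 0 rose. The counts were the same at an unadjusted p under 0.05, and DESeq2 made the same calls. Of the 45 initiation factor genes 25 fell (55.6%) and 7 rose (15.6%). Over all genes tested the shares were 28.4% lower and 27.7% higher, 56.1% in all.

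**Figure D4:**
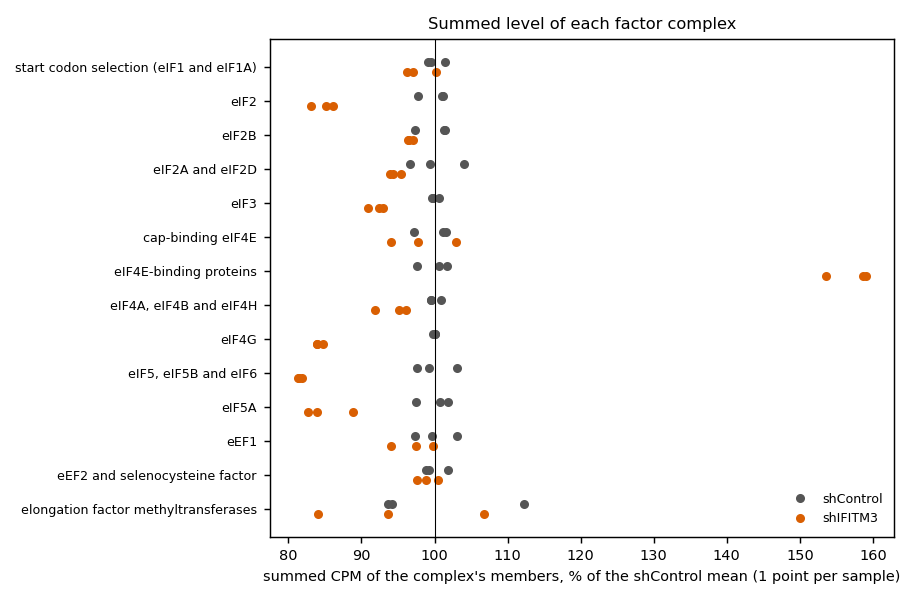
Summed CPM of the genes of each complex in each sample, as a percentage of the shControl mean (grey: shControl; orange: shIFITM3; 3 points per group). The eIF4E-binding proteins lie above 150 in shIFITM3. The sums of eIF2, of eIF4G, of eIF5A and of the group of eIF5, eIF5B and eIF6 lie between 80 and 90. The sums of eIF3 and of the eIF4A group include the uncertain rows of EIF3C, EIF3CL and EIF4A1.

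Summed over all 60 genes, the translation factors took 23962 ± 249 CPM in shControl and 22313 ± 287 CPM in shIFITM3, which is -6.88% without overlap (exact permutation test, p = 0.1, the smallest possible, and 0.16 after adjustment over the sums). EEF1A1, the largest term of this sum, did not pass, so the lower sum came from the other genes. The sum holds EIF4A1 and EIF3CL at 0 and the uncertain row of EIF3C. It and the sums of the complexes with these genes are therefore sums of table values, not measured levels of whole complexes. Per kilobase of exon, the order in shControl was EEF1A1 (1284 CPM), EEF1G (860), EIF5A (721) and EEF2 (566), followed by EIF4G1 (288). The SD of these levels over samples was 47.2, 3.69, 18.2, 9.16 and 0.792, so no neighbours in that order overlapped. EIF4A1 and EIF3C, whose rows are uncertain, are left out of this order. EEF1G is kept, although 99.9% of its exon bases are shared with another gene on the same strand, so its place is uncertain. The lengths are the merged exons of each gene's protein-coding transcripts in GENCODE, and the SD does not cover that choice.

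Genes that act on these factors were followed from lists of 80 other translation genes. Of 79 tested, 17 rose (21.5%), 39 fell (49.4%) and 23 did not pass, with a median log2 fold change of -0.10. Over all 14018 genes tested 27.7% rose and 28.4% fell, 56.1% in all, with a median of -6.3e-05. The counts per list below stand beside these shares, and the lists are small. The kinases that phosphorylate eIF2 in stress differed among themselves: EIF2AK3 (PERK, the sensor of unfolded protein in the endoplasmic reticulum) rose by 0.87, from 9.21 ± 0.350 to 16.8 ± 2.14 CPM, and EIF2AK4 (GCN2, the sensor of uncharged tRNA) by 0.32. EIF2AK1 and EIF2AK2, the kinases for haem lack and for double-stranded RNA, did not pass, at 0.03 and -0.06. On the phosphatase side PPP1R15A (GADD34), the stress-induced subunit that sends the phosphatase to eIF2, went up from 68.9 ± 2.88 to 164 ± 10.5 CPM (1.25 ± 0.048 SE on the log2 scale, edgeR adjusted p = 1.50e-16). Its constitutive counterpart PPP1R15B fell by 0.16, and the catalytic subunit PPP1CC fell by 0.73.

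Of 15 genes of the kinases and inhibitors of eIF4F and eEF2, 5 rose and 6 fell. PDCD4, which blocks eIF4A, rose by 0.56, and the eIF4E kinases MKNK1 and MKNK2 rose by 0.19 and 0.23. MTOR, the kinase that releases eIF4E from its binding proteins, fell by 0.44 from 152 ± 1.10 to 112 ± 4.49 CPM. DDIT4, an inhibitor of mTOR complex 1, fell by 1.06, and EEF2K, the kinase that stops eEF2, fell by 0.19. These are levels of mRNA, and phosphorylation was not measured.

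Among partners of the poly(A) tail 3 of 8 rose and 3 fell: PABPC1, which bridges the tail to eIF4G, fell from 3059 ± 21.3 to 2631 ± 40.4 CPM (log2 fold change -0.22), and its inhibitor PAIP2 rose by 0.47. In termination, recycling and rescue 6 of 7 tested genes fell, led by DENR at -0.74, which helps to clear the small subunit, and ABCE1 at -0.34, which splits the ribosome. Of 10 genes listed as helicases and alternative initiation, DAP rose by 1.19 (265 ± 3.05 to 603 ± 11.6 CPM), the smallest p of the list, and DHX9 fell by 0.44. DAP is a suppressor of autophagy and not a helicase, and it is a different gene from EIF4G2 (DAP5). In all, 2 of these 10 rose and 4 fell.

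Of the 9 genes for hypusine and diphthamide, the modifications of eIF5A and eEF2, 2 rose and 2 fell, with DPH1 at 0.37 and DHPS, the first enzyme of hypusine synthesis, at 0.20. The share that passed in this list was 44.4%, beside 56.1% over all genes. Of the 9 mitochondrial translation factors 5 fell, led by GFM1 (-0.66) and TUFM (-0.31), the mitochondrial counterparts of eEF2 and eEF1A. All 5 genes listed as partners of EEF1E1 fell, namely AIMP1, AIMP2, KARS, EPRS and VARS, with EPRS and VARS both at -0.35. The list leaves out other subunits of the tRNA synthetase complex, and VARS is not a subunit of it. Of 4 methyltransferases of eEF1A found under older symbols, N6AMT2 (-0.36) and METTL13 (-0.13) fell.

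**Figure D5:**
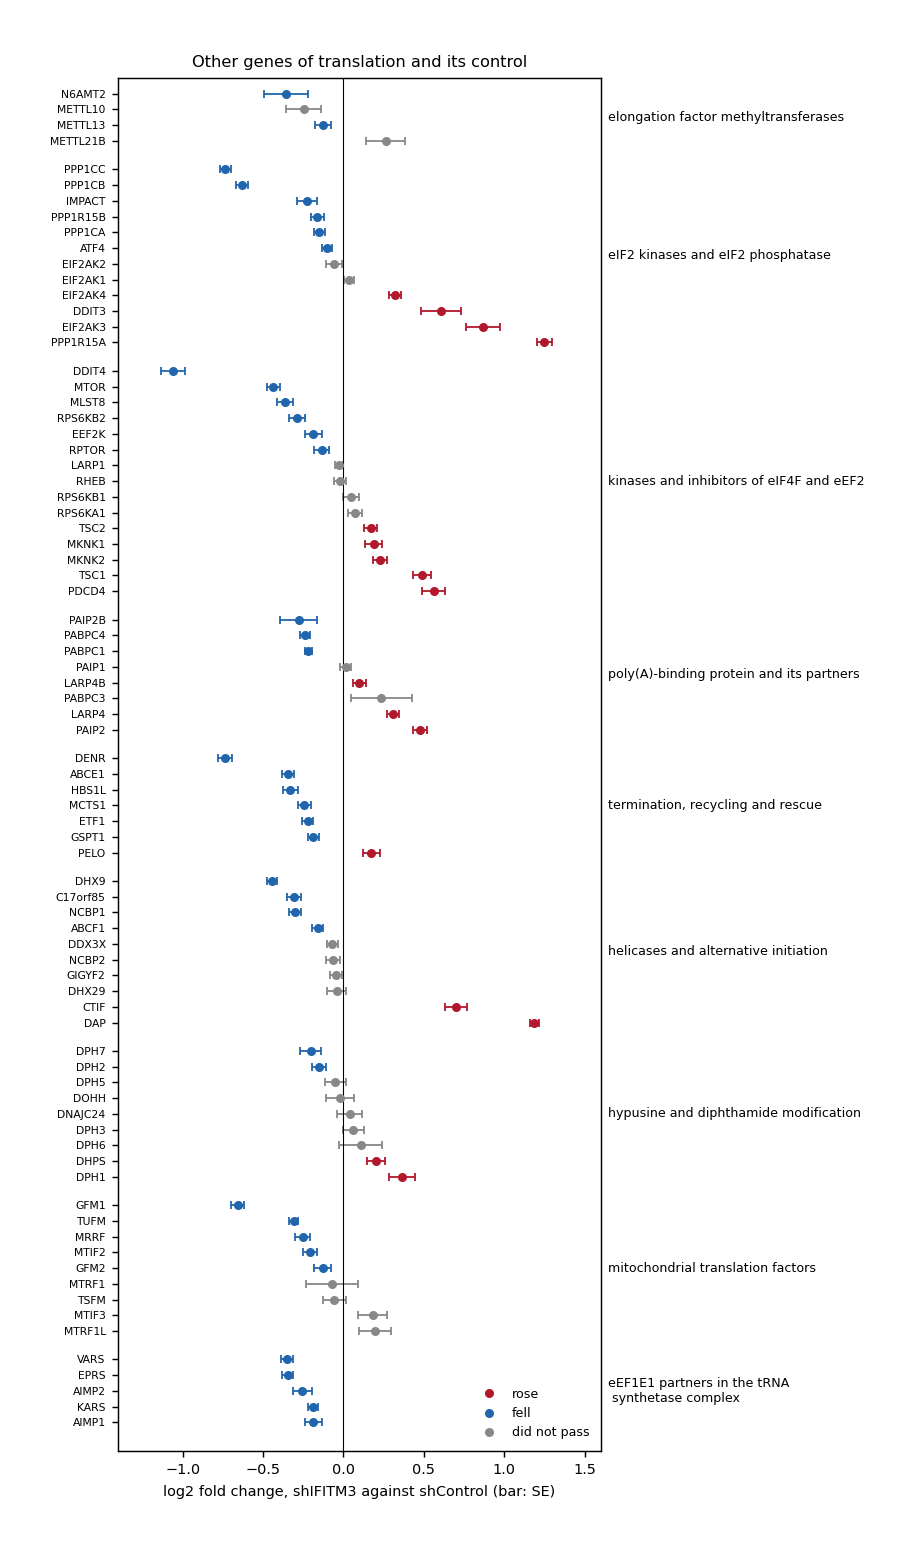
Log2 fold change of shIFITM3 against shControl for 79 other genes of translation and its control, grouped by list (points: estimate; bars: SE; colours as for the plot by complex). PPP1R15A at 1.25 and DAP at 1.19 lie farthest right and DDIT4 at -1.06 farthest left. The genes listed as EEF1E1 partners, a list that is not the whole complex and holds VARS from outside it, are all blue.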

How the data were processed

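Messenger RNA of PC-9 cells was measured in 3 shControl and 3 shIFITM3 samples. The values are raw counts, as the authors deposited them, by gene symbol. The submitters' processing notes name HISAT2 2.2.1, featureCounts of Subread 2.0.6, fastp 0.23.4, FastQC 0.12.1 and SAMtools 1.20, with build hg38. The annotation and strand setting of the counting are not stated in the labels, and overlapping genes may lose or share reads. From the counts, edgeR 4.0.16 in R 4.3.3 was run with TMM scaling, filterByExpr by group, glmQLFit on group and glmQLFTest (two-sided), with Benjamini-Hochberg adjustment over 14018 genes. "Rose" and "fell" mean adjusted p under 0.05. SE is the absolute log2 fold change over the square root of F. Sums of CPM and log2 ratios of counts plus 0.5 were compared by exact permutation. The fit was also run on simulated counts in which far fewer genes changed than here. That run therefore does not cover scaling or error rates when most genes differ. A 0 allows 3 counts, 0.039 to 0.141 CPM by library, and these floors cover counting error only. The 95% intervals are the log2 fold change ± a t quantile times SE, so they also include the spread between samples. All counts of EIF4E3 are even, and whether reads were counted in pairs was not tested. Alternatives were scaling by RLE, upper quartile or total count, 2 filters, DESeq2 1.42.0, limma-voom (limma 3.58.1), the replicate number as a block, a thinned shControl replicate 2 and each library left out. GENCODE release 29 and RefSeq (GRCh38.p14) gave exon overlaps, lengths, coordinates and start windows; sequences are credited to RefSeq.

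Values per sample are given for genes that passed with an absolute log2 fold change of at least 0.5, for the passing gene with the largest change in each complex, and for EIF4E, EIF4EBP1, EIF4EBP2, EIF4A1, EIF4A2, EIF2S1, EIF5A, EIF5A2, EEF1A1, EEF1A2 and EEF2. EIF3K was added after its values were seen. Other genes named are the eIF2 kinases, EEF2K, PPP1R15A, PPP1R15B, PDCD4, MKNK1, MKNK2 and up to 2 genes per list with the smallest p. The genes and lists were chosen with earlier results of these data known.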

Additional observations from a re-analysis of the deposited data

How the results depend on the processing

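Of the 36 translation factor genes that passed, 29 kept their call under all 15 alternatives, and 16 of the 18 others stayed without one; no fold change of a called gene reversed. The calls that were lost in some setting were those of EIF2D, EIF3A, EIF3H, EIF3L, EIF3M, EIF4A2 and EIF4G3, and EIF1B and EIF2B5 gained one in 1 and 5 settings. Leaving out each library gave between 6 and 7 rises and between 26 and 29 falls. Upper-quartile scaling moved the log2 ratio of the summed level of all members from -0.10 to -0.12 and gave 6 rises and 30 falls; the cause was not tested. The replicate numbers did not pair the samples (correlations of the deviations 0.03, 0.05 and 0.004), and with the replicate block 7 genes rose and 30 fell, EIF2B5 being the gain. Leaving out EIF3C, chosen after seeing the data, gave 6 rises and 29 falls. Most changes are under 0.3 on the log2 scale, so they rest on the small spread between 3 samples, and with 3 against 3 the exact tests cannot go below 0.1.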
